A study of Homo sapiens with 12 samples.

Results

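The comparison described here asked what RNA still changed over 28 days of differentiation in human neural progenitor cells (NPCs) without KDM6 demethylase activity. The samples of dKO cells at day 28, dKO-D28 replicates 1 and 2, were set against 2 samples of undifferentiated dKO NPCs, dKO-NPC replicates 1 and 2. These are 4 of the 12 sequenced samples of the series. All cells derive from H1, a human embryonic stem cell line. In the dKO line the catalytic JmjC exons of UTX (the gene KDM6A) and JMJD3 (KDM6B) had been removed in the stem cells, before neural induction by inhibition of SMAD signalling, so both groups carry the same deletions. The study's methods place the starting NPCs at passage 2 and the labels give no passage for them. NPCs were kept as spheres with FGF2 and EGF, and the day 28 cells were plated without these growth factors in medium with GDNF, BDNF and cAMP. Matched WT groups, WT-NPC and WT-D28, carry no deletion and had the same culture, and later NPCs at passage 4 exist for both genotypes. Of 58302 genes in the files, the 13454 whose raw counts averaged 20 or more across the 12 samples are described. The labels do not say whether the replicates are separate cultures, so p-values measure the spread between these samples, which may be technical. An exact permutation of 2 against 2 samples cannot give a p below 0.333, so the tests rest on the model fitted across genes.

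KDM6A and KDM6B remove methyl groups from lysine 27 of histone H3, a mark that Polycomb repressive complex 2 places on silent developmental genes. Neural differentiation from progenitors normally combines exit from the cell cycle with the opening of neuronal and glial programmes and the lasting closure of genes of other lineages and regions. Forebrain progenitors are further sorted along a dorsal to ventral axis, with WNT and BMP signals dorsally and sonic hedgehog signals ventrally, the latter inducing the transcription factor NKX2-1.

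Whole-gene counts are totals over all exons, so they cannot show whether the targeted exons are missing. The study itself reported no detectable UTX or JMJD3 by qRT-PCR in the lines lacking them. KDM6A stood at 39.8 and 38.9 CPM in dKO-NPC and 59.4 and 32.4 CPM in dKO-D28, and KDM6B at 155 and 159 CPM in dKO-NPC and 146 and 152 CPM in dKO-D28. Neither changed by the test (adjusted p = 0.67 and 0.753), and both were also counted in the WT libraries, so these counts neither support nor contradict the genotype labels. Of pluripotency genes, POU5F1 and NANOG were at 0 in all 4 libraries, while LIN28A, an RNA-binding protein also present in early neural progenitors, stood at 87.1 and 79.9 CPM in dKO-NPC and 32.2 and 80.3 CPM in dKO-D28. Of the 13 progenitor markers, SOX2, a core progenitor transcription factor, stood at 385 and 364 CPM in dKO-NPC and 358 and 290.1 CPM in dKO-D28, while the summed level of all 13 was 7800 to 8180 CPM in dKO-NPC and 4120 to 4830 CPM in dKO-D28, NES and VIM making most of that sum. The oligodendrocyte factor SOX10 and the blood cell gene PTPRC (CD45) were at or near 0, with SOX10 at most at 0.751 CPM and PTPRC at most at 0.485 CPM. Bulk RNA cannot tell fewer cells of a type from less RNA per cell.

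Some libraries stood apart in ways the labels do not explain. The dKO-NPC libraries held 1337776 and 1438807 counts and the dKO-D28 libraries 4082248 and 5214431, so the limit set by 3 counts was 2.12 to 2.25 CPM before and 0.579 to 0.727 CPM after differentiation. The early NPC libraries of both genotypes gave 1.41% to 1.46% of their counts to pseudogenes against 0.905% to 1.08% in the other 8 libraries, and 1.66% to 1.79% to mitochondrial genes against 3.70% to 5.18%. Passage 4 NPCs lay with the day 28 libraries in both measures. This property of the libraries cannot be told apart from the start of the time course. Separately, the dKO-D28 replicates differed from each other more than any other pair: 288 of 8973 genes with a mean of at least 20 CPM (CPM, counts scaled to a common library size after TMM normalization) differed over 2-fold, against 41 of 8897 between the dKO-NPC replicates and 7 of 8823 between the WT-D28 replicates.

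**Figure D1:**
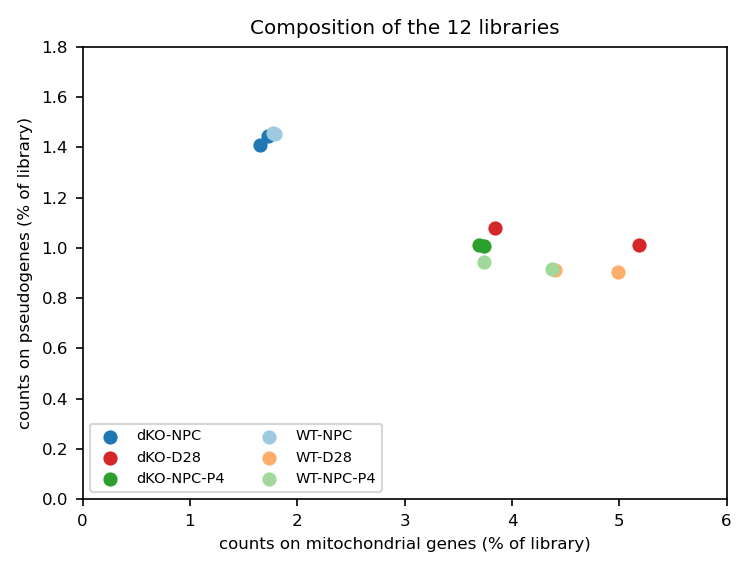
Share of each library's counts on pseudogenes (vertical axis, %) against its share on mitochondrial genes (horizontal axis, %), 1 point per library, coloured by group. The 4 early NPC libraries lie apart from the other 8, at mitochondrial shares of 1.66% to 1.79%.

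In dKO cells 336 genes (2.50% of those tested) were called higher at day 28 and 337 (2.50%) lower, at a Benjamini-Hochberg adjusted p below 0.05 in edgeR's quasi-likelihood test and a fold change above 2. Among these, 125 rises and 111 falls exceeded 4-fold. In all of them the groups did not overlap, and that also held, rising or falling, for 24.0% and 23.1% of all genes tested. The median log2 fold change over all genes was 0.01. The rises depended on the libraries used. They numbered 210 without dKO-NPC replicate 1, 174 without dKO-NPC replicate 2, 488 without dKO-D28 replicate 1 and 535 without dKO-D28 replicate 2, while the falls ranged from 262 (without dKO-NPC replicate 2) to 627 (without dKO-D28 replicate 1). A fit to the 4 dKO libraries alone, which takes its estimate of spread from them, called 162 rises and 241 falls. Of the 336 rises, 255 were called with either dKO-D28 library left out and 104 with any 1 of the 4 left out, and of the 337 falls 264 and 191. No gene was called in the opposite direction when either dKO-D28 library was left out.

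**Figure D2:**
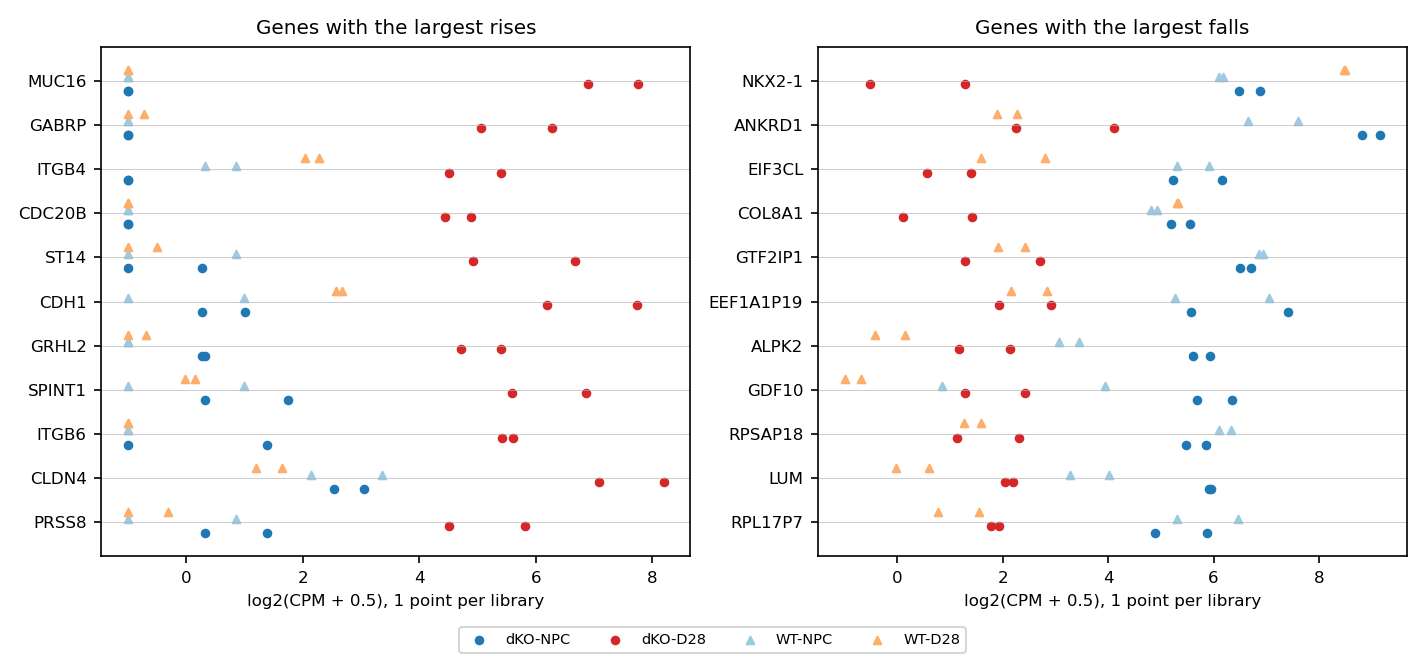
Expression as log2(CPM + 0.5) (horizontal axis) of genes with the largest rises (left) and falls (right), 1 point per library, circles for dKO and triangles for WT. For the rises the dKO-D28 points lie to the right of those of all other groups shown.

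Several of the 12 largest rises were in genes known from epithelial cells. MUC16, a membrane-bound mucin, was not counted in either dKO-NPC library and reached 119 and 215 CPM in dKO-D28. It was also at 0 in the WT-NPC and WT-D28 libraries, and the rise was at least 158-fold against a floor of 3 counts over both dKO-NPC libraries. GABRP, a GABA receptor subunit typical of epithelia, likewise went from 0 to 33 and 77 CPM, at least 52.6-fold higher. ITGB4, the integrin subunit of hemidesmosomes, went from 0 to 22.3 and 41.9 CPM, at least 30.4-fold higher. CDC20B, a gene of multiciliated cells, went from 0 to 21.1 and 29.1 CPM, at least 23.4-fold higher. All 4 genes were uncounted in both progenitor libraries, and in all 4 replicate 2 held more than replicate 1. DESeq2 did not call MUC16 or GABRP (adjusted p = 0.285 and 0.195), and GABRP was not called in the fit to 4 libraries.

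CDH1, which encodes E-cadherin of the adherens junction, stood at 1.5 and 0.707 CPM in dKO-NPC and 72.7 and 213 CPM in dKO-D28, a ratio of 138-fold (95% interval 47.2 to 671) whose exact interval covers counting error only. EPCAM, a surface adhesion molecule of epithelia, stood at 3.75 and 2.12 CPM in dKO-NPC and 37.6 and 50.9 CPM in dKO-D28 (log2 fold change 3.91 ± 0.36 (SE), adjusted p = 5.19e-06). GRHL2, a transcription factor that sustains the epithelial state, was at 0.751 and 0.707 CPM in dKO-NPC and 25.7 and 41.9 CPM in dKO-D28, a ratio of 47.6-fold (95% interval 13.1 to 395). ESRP1, the splicing regulator of epithelia, was at 0 and 1.41 CPM in dKO-NPC and 18.9 and 45.4 CPM in dKO-D28, a ratio of 46.2-fold (95% interval 12.7 to 383). These 4 genes were thus close to the floor in the progenitors and clearly counted in both day 28 libraries.

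Of the 11 epithelium-list genes tested, 8 rose and none fell, with a median log2 fold change of 3.91 against 0.01 over all genes. Besides the genes above, these were ELF3, KRT7, KRT19 and CLDN4, a tight junction claudin that stood at 5.25 and 7.78 CPM in dKO-NPC and 135 and 292 CPM in dKO-D28 (log2 fold change 5.02 ± 0.56 (SE), adjusted p = 0.000743). KRT19, a keratin of simple epithelia, stood at 13.5 and 14.8 CPM in dKO-NPC and 119.8 and 278 CPM in dKO-D28 (log2 fold change 3.81 ± 0.49 (SE), adjusted p = 0.0017). KRT8, KRT18 and CLDN6 did not pass, and KRT8 was already at 265 and 277 CPM in dKO-NPC before reaching 392 and 665 CPM. Counts on the 11 gave 8 rises or more with either dKO-D28 library left out, 7 and 8 without dKO-NPC replicates 1 and 2, and 6 in the fit to 4 libraries, which lost CDH1 and KRT19. Keratins of stratified epithelium (KRT5, KRT14) and TP63 were among the 5 list genes below the count minimum.

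Other genes among the 12 largest rises, which are on none of the gene lists, included ST14 and PRSS8, membrane-anchored serine proteases, and their inhibitor SPINT1, which stood at 0.751 and 2.83 CPM in dKO-NPC and 47.5 and 115 CPM in dKO-D28 (log2 fold change 5.47 ± 0.69 (SE), adjusted p = 0.000709). ST14 stood at 0 and 0.707 CPM in dKO-NPC and 29.8 and 101 CPM in dKO-D28, a ratio of 191-fold (95% interval 34.2 to 7564), and PRSS8 at 0.751 and 2.12 CPM in dKO-NPC and 22.3 and 56 CPM in dKO-D28. ITGB6, an integrin subunit that activates latent TGF-beta, stood at 0 and 2.12 CPM in dKO-NPC and 42.4 and 48.2 CPM in dKO-D28, a ratio of 41.8-fold (95% interval 14.2 to 204). None of the 12 genes with the largest rises exceeded 7.78 CPM, the value of CLDN4, in a dKO-NPC library. COL17A1, a hemidesmosomal collagen, rose as well, from 2.25 and 1.41 to 28.6 and 64.3 CPM. ST14 and PRSS8 lost the call without either dKO-NPC library.

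In the WT cells the epithelium list went the other way in its median, -1.74, with 1 rise and 5 falls of the 11. The change differed between genotypes by the interaction contrast in 7 of the 11, all higher in dKO, where the background was 10.7% of genes called higher and 9.48% called lower. CDH1, GRHL2 and ESRP1 were not among the 7 (adjusted p = 0.446, 0.973 and 0.928), so their rises were not shown to differ from WT. For KRT19 the difference was 8.91 on the log2 scale (adjusted p = 0.00123), with WT cells falling from 10.4 and 13.4 to 0.12 and 0.503 CPM. MUC16, CDC20B and ITGB6 were at 0 in the WT-NPC and WT-D28 libraries, so their WT change is undefined and the contrast does not bear on them. Summed over the 16 list genes, epithelial RNA was 475 and 556 CPM in dKO-NPC, 1108 and 2146 CPM in dKO-D28, 95.3 to 239 CPM in WT-NPC and 28.2 to 30.2 CPM in WT-D28. Both dKO-NPC libraries thus stood above both WT-NPC libraries.

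Among regional identity genes, those of the ventral forebrain included falls and those of the cortex rises. NKX2-1, the ventral forebrain determinant, made the largest of the 12 largest falls, from 88.6 and 117 CPM in dKO-NPC to 1.94 and 0.193 CPM in dKO-D28 (log2 fold change -6.69 ± 0.32 (SE), adjusted p = 1.89e-08). It was called lower with any 1 of the 4 libraries left out. In WT cells it rose from 67.9 and 71.6 to 359 and 354 CPM, and the changes differed by -9.03 on the log2 scale (adjusted p = 2.11e-10). Passage 4 dKO NPCs were also low, at 0.468 and 0.736 CPM.

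Of 16 tested genes of ventral forebrain and interneurons, 6 fell and none rose, while without dKO-D28 replicate 1 the counts were 7 and 2 and without dKO-NPC replicate 1 they were 3 and 1. LHX8, of ventral cholinergic and interneuron lineages, stood at 6.01 and 2.83 CPM in dKO-NPC and 0.485 and 0.386 CPM in dKO-D28 and ISL1, a LIM homeobox factor of ventral projection and cholinergic neurons, at 10.5 and 6.36 CPM in dKO-NPC and 2.18 and 0.965 CPM in dKO-D28. In dKO-D28 LHX8 lay below the limit of 3 counts, while WT-D28 cells held 112 and 119 CPM of LHX8 and 56.4 and 52.2 CPM of ISL1. The other falls were DLX5, DLX6 and CALB1. DLX1 and DLX2, homeobox genes that drive interneuron production, were not called, DLX1 at 25.5 and 12 CPM in dKO-NPC and 10.7 and 0.965 CPM in dKO-D28 and DLX2 at 16.5 and 4.24 CPM in dKO-NPC and 7.27 and 5.6 CPM in dKO-D28. The list's median was -0.98, or -1.29 with genes at 0 set to their bound, and it was 1.64 in WT cells. Without dKO-NPC replicate 1, LHX8, ISL1 and DLX6 were not called, without dKO-NPC replicate 2, DLX6 and CALB1 were not, and the fit to 4 libraries called 2 of the list's genes lower.

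Of 20 tested genes of the cortical excitatory list, 6 rose and 1 fell, and the list's median was -0.04. EMX1, a homeobox factor of the dorsal telencephalon, stood at 0.751 and 1.41 CPM in dKO-NPC and 9.7 and 19.3 CPM in dKO-D28, a ratio of 13.8-fold (95% interval 4.62 to 67.6), and TBR1, a marker of early-born cortical neurons, at 4.5 and 2.83 CPM in dKO-NPC and 29.1 and 17.9 CPM in dKO-D28 (log2 fold change 2.66 ± 0.41 (SE), adjusted p = 0.000437). BCL11B, a factor of deep-layer projection neurons, rose from 1.5 and 2.12 to 10.9 and 7.72 CPM, and the other rises were EMX2, FEZF2 and FOXP2. The single fall was CAMK2A, a kinase of mature excitatory synapses, at 14.3 and 11.3 CPM in dKO-NPC and 6.06 and 5.02 CPM in dKO-D28. Upstream of these, EOMES (TBR2), which marks intermediate progenitors of the cortex, stood at 1.5 and 1.41 CPM in dKO-NPC and 20.6 and 24.3 CPM in dKO-D28 (log2 fold change 3.92 ± 0.34 (SE), adjusted p = 1.74e-06), and the proneural factor NEUROG1 at 3.75 and 3.54 CPM in dKO-NPC and 12.6 and 13.9 CPM in dKO-D28. The proneural and intermediate progenitor list, which holds EOMES, NEUROG1 and TBR1, had 19 genes tested. These 3 rose, 1 fell and 15 were not called. The list's median over the dKO-NPC mean was 0.75 in dKO-D28 replicate 1 and 0 in replicate 2. In WT cells TBR1 fell from 6.53 and 3.73 to 0.12 and 0.402 CPM, and the changes differed by 6.64 (adjusted p = 7.68e-05). Undifferentiated passage 4 NPCs of both genotypes also held TBR1, at 30.7 and 24.8 CPM in dKO and 246 and 268 CPM in WT. EOMES stood at 2.81 and 2.7 CPM in passage 4 dKO NPCs and 402 and 413 CPM in passage 4 WT NPCs. BCL11B and NEUROG1 were not called without either dKO-NPC library, CAMK2A without dKO-NPC replicate 1, and FEZF2 without dKO-D28 replicate 2.

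Of 32 tested Wnt-list genes 8 rose and 3 fell, 21 were not called, and the median was 0.28. RSPO2, a secreted amplifier of Wnt signalling, was at 0 in dKO-NPC and at 8.0 and 20.6 CPM in dKO-D28, at least 13.8-fold higher, and its relative RSPO3 stood at 2.25 and 0.707 CPM in dKO-NPC and 12.1 and 18.3 CPM in dKO-D28 (log2 fold change 3.37 ± 0.55 (SE), adjusted p = 0.000738). WNT8B, a ligand of the cortical hem, stood at 0.751 and 0 CPM in dKO-NPC and 12.1 and 31.5 CPM in dKO-D28, a ratio of 62.9-fold (95% interval 11.2 to 2494). LMX1A, a roof plate and hem transcription factor that is not on the Wnt list, stood at 0.751 and 0.707 CPM in dKO-NPC and 4.36 and 11.2 CPM in dKO-D28, a ratio of 11.2-fold (95% interval 3.0 to 94.3). All of these were higher in replicate 2 than in replicate 1, and all were also counted in passage 4 dKO NPCs, WNT8B at 99.3 and 105 CPM. PAX7, a homeobox factor of dorsal neural tube and neural crest, rose from 6.76 and 8.49 to 70.5 and 62.1 CPM (log2 fold change 3.11 ± 0.28 (SE), adjusted p = 3.87e-06), while it stood at 0 and 2.98 CPM in WT-NPC and at 0 in both WT-D28 libraries. Undifferentiated passage 4 dKO NPCs held 60.2 and 59.8 CPM of PAX7, near the day 28 level. The Wnt-list falls were FZD5, a receptor, from 504 and 543 to 212 and 90.9 CPM, and the secreted modulators DKK3 and FRZB, the latter from 84.8 and 96.9 to 37.8 and 38.4 CPM. Without dKO-D28 replicate 1 the list had 13 rises and 5 falls and without dKO-NPC replicate 2 it had 4 rises, WNT8B among those lost, and LMX1A and FZD5 were lost without either dKO-NPC library.

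The choroid plexus and pigment epithelium list had 5 rises of 11 genes tested, RSPO2 and LMX1A among them, and a median of 1.61. PMEL and DCT, melanosome genes of pigmented cells, were higher in dKO-D28, PMEL at 20.3 and 11.3 CPM in dKO-NPC and 38.1 and 99.4 CPM in dKO-D28. Of defining choroid plexus genes, TTR, a thyroid hormone carrier, was at 0 in dKO-NPC and at 1.21 and 0 CPM in dKO-D28. Without either dKO-NPC library LMX1A, PMEL and CLIC6 were not called, and RSPO2 and DCT were. FOXJ1, the master factor of motile cilia, rose from 4.5 and 8.49 to 25.5 and 31.3 CPM, and in WT cells from 5.22 and 10.4 to 26.9 and 23.6 CPM. It was 1 of 2 rises among 12 ependymal and cilia genes, the other being DNAH9, whose call was lost without dKO-D28 replicate 2 or either dKO-NPC library.

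The cAMP and CREB response list, which includes immediate-early genes, held 7 rises. The day 28 medium contained cAMP and the progenitor medium is not described as doing so. Whether this had a part in the rises was not tested. PTGS2 (COX-2), the inducible prostaglandin synthase, made the largest of them, at 3.0 and 0.707 CPM in dKO-NPC and 43.4 and 52.7 CPM in dKO-D28 (log2 fold change 4.70 ± 0.44 (SE), adjusted p = 5.51e-06). FOSB, a subunit of the AP-1 factor, stood at 109 and 75.7 CPM in dKO-NPC and 475 and 282 CPM in dKO-D28 (log2 fold change 2.04 ± 0.28 (SE), adjusted p = 0.00145). CRH, the corticotropin-releasing hormone, was at 4.5 and 0 CPM in dKO-NPC and 8.73 and 10.2 CPM in dKO-D28, and passage 4 dKO NPCs held more, 181 and 169.9 CPM. ATF3, a stress-inducible factor, stood at 59.3 and 64.4 CPM in dKO-NPC and 185 and 146 CPM in dKO-D28 (log2 fold change 1.42 ± 0.15 (SE), adjusted p = 1.05e-05). Of 23 genes tested on the list, 7 rose and none fell, the others being FOS, NR4A1 and DUSP1, and the median was 0.26. FOS, FOSB, NR4A1, ATF3 and DUSP1 were higher in replicate 1 than in replicate 2, PTGS2 and CRH were not. DUSP1 was not called without dKO-D28 replicate 1 or without either dKO-NPC library, and CRH not without dKO-NPC replicate 2. Without dKO-D28 replicate 1 the list held 8 rises and 3 falls. The fit to 4 libraries called 4 rises. In WT cells, which had the same medium, 3 genes of the list were called higher and 4 lower, with a median of 0.026. FOSB fell there from 188 and 151 to 44.5 and 42.7 CPM, and the changes differed by 3.98 (adjusted p = 6.66e-05).

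The promoters of 4 of these 7 genes are shown because CREB, the factor that cAMP activates, binds sites with the 5 letters TGACG, alone or as a palindrome. The windows hold the 250 bases before the annotated start, from RefSeq on GRCh38.p14, written 5′ to 3′ along the gene, with matches to TGACG on either strand in capitals.
PTGS2, chr1:186680424-186680673, minus strand: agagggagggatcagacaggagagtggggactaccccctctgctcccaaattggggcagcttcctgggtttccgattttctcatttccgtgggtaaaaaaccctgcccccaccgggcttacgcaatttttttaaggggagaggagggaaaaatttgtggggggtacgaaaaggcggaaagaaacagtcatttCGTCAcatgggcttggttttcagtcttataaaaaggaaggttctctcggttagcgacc
FOS, chr14:75278578-75278827, plus strand: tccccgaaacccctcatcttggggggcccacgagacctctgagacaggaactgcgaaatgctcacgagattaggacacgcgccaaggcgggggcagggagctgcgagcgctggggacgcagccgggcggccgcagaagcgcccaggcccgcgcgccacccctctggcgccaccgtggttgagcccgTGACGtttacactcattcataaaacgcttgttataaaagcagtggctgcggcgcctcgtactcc
FOSB, chr19:45467746-45467995, plus strand: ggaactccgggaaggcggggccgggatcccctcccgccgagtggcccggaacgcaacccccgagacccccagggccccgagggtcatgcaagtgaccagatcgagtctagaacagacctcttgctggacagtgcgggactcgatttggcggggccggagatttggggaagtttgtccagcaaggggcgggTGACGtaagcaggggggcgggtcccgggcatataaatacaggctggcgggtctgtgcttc
DUSP1, chr5:172771196-172771445, minus strand: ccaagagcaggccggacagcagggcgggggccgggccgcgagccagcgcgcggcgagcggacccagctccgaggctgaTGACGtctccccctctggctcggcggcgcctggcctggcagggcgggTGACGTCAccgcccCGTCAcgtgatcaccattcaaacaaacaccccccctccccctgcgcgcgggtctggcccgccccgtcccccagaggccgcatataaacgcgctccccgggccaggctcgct
PTGS2, FOS and FOSB each hold 1 match, starting 58, 64 and 60 bases before the start, and DUSP1 holds 4 that start between 172 and 111 bases before it, of which 2 overlap on opposite strands in 1 palindrome. Of the 23 list genes tested, 19 had a window in the table, and 11 of these (57.9%) held a match, as did 4 of the 6 windows of genes that rose (66.7%). Over all 10106 windows of tested genes the share was 30.2%, and over all 27305 windows 21.7%. These shares are descriptions, the list having been made of genes known to respond to CREB. The windows of NR4A1 and ATF3 held no match.

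Genes of the contractile cytoskeleton and the extracellular matrix gave the most falls of any list. ANKRD1, a target of the YAP and TAZ coactivators, dropped from 447 and 571 to 16.7 and 4.25 CPM (log2 fold change -5.67 ± 0.52 (SE), adjusted p = 0.000643). TAGLN (transgelin), an actin-binding protein of smooth muscle, stood at 636 and 862 CPM in dKO-NPC and 46.5 and 63.5 CPM in dKO-D28 (log2 fold change -3.76 ± 0.37 (SE), adjusted p = 0.000697). CAVIN1, a coat protein of caveolae, stood at 118 and 159.8 CPM in dKO-NPC and 8.24 and 12 CPM in dKO-D28 (log2 fold change -3.76 ± 0.25 (SE), adjusted p = 4.86e-07). In each, both dKO-D28 libraries lay below both progenitor libraries. Among the most abundant RNAs, the tropomyosin TPM1 stood at 1477 and 1878 CPM in dKO-NPC and 626 and 554 CPM in dKO-D28 and non-muscle myosin MYH9 at 1688 and 1924 CPM in dKO-NPC and 642 and 872 CPM in dKO-D28, falls of 1.51 ± 0.25 and 1.25 ± 0.19 (SE) on the log2 scale. Of 29 tested genes of the actomyosin and YAP list 14 fell and none rose (median -0.96). The count was 12 to 15 with any 1 library left out and 13 in the fit to 4 libraries.

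Of 32 tested matrix and mesenchyme genes, 12 fell and none rose (median -0.68), and the count lay between 10 and 16 with any 1 library left out. COL8A1, a short-chain collagen, fell from 46.5 and 36.1 to 2.18 and 0.579 CPM (log2 fold change -4.96 ± 0.35 (SE), adjusted p = 3.49e-07). LUM (lumican), a proteoglycan of collagenous matrix, fell from 60.1 and 61.5 to 3.64 and 4.05 CPM (log2 fold change -3.97 ± 0.27 (SE), adjusted p = 3.49e-07), and COL12A1 from 45.8 and 60.1 to 6.06 and 10.8 CPM. The TGF-beta ligand TGFB2 fell from 126 and 148 to 23.5 and 39.4 CPM and the BMP-family ligand GDF10 from 51 and 81.3 to 1.94 and 4.82 CPM. ALPK2, an atypical kinase, was another of the 12 largest falls, at 48 and 60.1 CPM in dKO-NPC and 3.88 and 1.74 CPM in dKO-D28. Of other markers, the myogenic factor MYOD1 was at 0 in all 4 dKO libraries, the muscle actin ACTC1, below the count minimum, was at 12 and 25.5 CPM in dKO-NPC and 4.36 and 1.35 CPM in dKO-D28, and mesenchymal TWIST1 was at most at 0.242 CPM. The summed level of 8 mesenchyme markers was 889 to 1080 CPM in dKO-NPC and 299 to 439 CPM in dKO-D28. COL1A1 made most of that fall, from 572 and 676 to 154 and 79.9 CPM, and COL3A1 and LUM were also lower. COL1A2 stood at 161 and 219 CPM in dKO-NPC and 190 and 189 CPM in dKO-D28. PDGFRB and PRRX1 were lower in dKO-D28 replicate 2 only.

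Several of these genes also fell in WT cells. The WT change was -5.33 for ANKRD1, -2.94 for TAGLN and -4.04 for LUM, and none of these was shown to differ between genotypes by the contrast (adjusted p = 0.81, 0.281 and 0.893). COL8A1 did differ: in WT cells it was at 27.4 and 29.8 CPM in WT-NPC and at 39.4 and 38.8 CPM in WT-D28, and the difference was -5.39 (adjusted p = 2.61e-07). TNC (tenascin C), a matrix protein of radial glia, fell from 419 and 537 to 40.00 and 49.98 CPM in dKO cells and rose in WT cells from 49.6 and 181 to 414 and 404 CPM (difference -5.13, adjusted p = 0.000629). CD44, a hyaluronan receptor, fell more steeply in dKO (-3.33) than in WT cells (-1.25), a difference of -2.08 (adjusted p = 0.00042).

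Of the 29 tested progenitor and radial glia genes, 4 fell and none rose, and the median was -0.05, or -0.21 with genes at 0 set to their bound. NES (nestin) fell from 1783 and 1735 to 620.3 and 618 CPM (log2 fold change -1.51 ± 0.09 (SE), adjusted p = 1.31e-07) and VIM (vimentin) from 4309 and 4864 to 2680.5 and 1852 CPM (log2 fold change -1.02 ± 0.13 (SE), adjusted p = 0.000103), both intermediate filaments of progenitors. Besides TNC the fourth was NR2E1 (TLX), a nuclear receptor of neural stem cells, at 67.6 and 53 CPM in dKO-NPC and 28.4 and 25.5 CPM in dKO-D28. Undifferentiated passage 4 dKO NPCs held 703 and 736 CPM of NES, near the day 28 level. They held 100 and 105 CPM of TNC, 2.81 and 2.7 CPM of NR2E1 and 4032 and 3986 CPM of VIM. The VIM call was lost without dKO-D28 replicate 2 or without dKO-NPC replicate 2, and that of NR2E1 without dKO-NPC replicate 1. VIM-AS1 fell alongside VIM, but its reads cannot be told apart from those of VIM, since the library kit does not mark strand. SOX1, a progenitor transcription factor, was at 153 and 143 CPM in dKO-NPC and 117 and 114 CPM in dKO-D28 and PAX6, an eye and cortex determinant, at 209 and 178 CPM in dKO-NPC and 189.6 and 356 CPM in dKO-D28. Neither was called (adjusted p = 0.0561 and 0.256). In WT cells PAX6 fell from 304 and 262 to 11.9 and 11.7 CPM, and the changes differed by 5.08 (adjusted p = 8.06e-06). FABP7, a lipid carrier of radial glia, stood at 84.8 and 93.3 CPM in dKO-NPC and 178 and 43.8 CPM in dKO-D28. Its replicates lay on either side of the progenitors, so no direction can be given.

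Among genes of the cell cycle 1 call was made in the phase and replication lists, where 2.50% of all genes tested were called higher and 2.50% lower. A count this low is near that share, so it is no trait of these lists by itself. None of 42 S phase genes and none of 37 replication genes was called in either direction, and 1 of 54 G2/M genes was, CENPE, a mitotic motor, which fell from 150.1 and 132 to 75.1 and 58.1 CPM and was not called without dKO-D28 replicate 2 or dKO-NPC replicate 1. The medians were -0.06, -0.07 and -0.12 on the log2 scale. MKI67, the Ki-67 antigen of dividing cells, chosen after its values were seen, stood at 517 and 484 CPM in dKO-NPC and 414 and 567 CPM in dKO-D28. In WT cells the medians of the 3 lists were -1.52, -1.81 and -2.01. There 34, 34 and 46 genes were called lower, where the share over all genes was 11.3%. The change was higher in dKO by the contrast in 31, 32 and 44 genes, where that share was 10.7%. Replicate 1 was slightly lower than replicate 2 in all 3 lists (medians of -0.27 and 0.10 over the dKO-NPC mean for S phase). G1 regulators included 2 falls of 22, CDK6 from 319 and 344 to 77.1 and 102 CPM and the inhibitor CDKN2B from 25.5 and 43.8 to 15.8 and 9.65 CPM, the latter lost without dKO-NPC replicate 2. Undifferentiated passage 4 dKO NPCs held 101 and 119 CPM of CDK6 and 55.5 and 56.9 CPM of CDKN2B. None of 31 p53 and apoptosis genes was called, a count that is also near the share over all genes.

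Calls among neuronal and glial genes were few in number, where 2.50% of all genes tested were called higher and 2.50% lower. Of 30 tested genes of neuronal cytoskeleton and identity, 2 rose and 2 fell (6.67% each, median -0.36). Of 33 synapse genes none rose and 1 fell (3.03%), and of 27 ion channel and receptor genes 1 rose (3.7%). These shares lay near or above those over all genes. MAP2, a dendritic microtubule protein, was at 426 and 385 CPM in dKO-NPC and 522 and 320.2 CPM in dKO-D28 and TUBB3, neuronal beta-tubulin, at 31.5 and 38.9 CPM in dKO-NPC and 27.6 and 10.2 CPM in dKO-D28, neither called (adjusted p = 0.897 and 0.184). In WT cells MAP2 rose from 416 and 405 to 1141 and 1112 CPM, and the changes differed by -1.40 (adjusted p = 0.00104). RBFOX3 (NeuN) was below the count minimum, at 3.88 and 2.7 CPM in dKO-D28. The calls were CNTN2 and CNTN1, axonal adhesion molecules, upwards, with CNTN2 at 39 and 26.2 CPM in dKO-NPC and 215 and 105 CPM in dKO-D28, and TUBB2A and THY1 downwards. CPLX1 (complexin) was the synapse gene that fell, from 9.76 and 7.07 to 3.64 and 1.16 CPM, and KCNH7, a potassium channel, the one that rose, from 2.25 and 1.41 to 6.79 and 6.95 CPM. Leaving out a dKO-D28 library moved these counts. Without replicate 1, 14 cytoskeleton and identity genes, 6 synapse genes and 9 channel and receptor genes were called lower, and without replicate 2, 4 synapse genes and 4 channel and receptor genes were called higher. All 6 lost their call with some library left out, CNTN1, THY1, CPLX1 and KCNH7 without either dKO-NPC library, CNTN2 without dKO-NPC replicate 2, and TUBB2A and CPLX1 without dKO-D28 replicate 2.

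Astrocyte genes gave 1 rise, ITGB4, and 1 fall, CD44, of 21 tested, and neither is restricted to astrocytes. Each was 4.76% of the list, beside 2.50% of all genes called in each direction. The list had 3 rises and 4 falls without dKO-D28 replicate 1 and 4 and 2 without replicate 2. GFAP stood at 3.75 and 7.07 CPM in dKO-NPC and 5.09 and 6.95 CPM in dKO-D28, S100B at 0 in dKO-NPC and 1.21 and 0 CPM in dKO-D28, and GJB6, a gap junction protein below the count minimum, at 0 and 0.727 and 1.54 CPM. GFAP was not called (adjusted p = 0.871). In WT cells GFAP rose from 2.61 and 2.98 to 14.9 and 18.2 CPM. The median of the astrocyte list was 0.18, or 0.16 with genes at 0 set to their bound, and 1.52 in WT cells. The neuron-specific BAF subunit ACTL6B stood at 6.01 and 3.54 CPM in dKO-NPC and 5.33 and 1.35 CPM in dKO-D28 and the progenitor subunit ACTL6A at 77.3 and 64.4 CPM in dKO-NPC and 76.6 and 81.8 CPM in dKO-D28. None of 22 BAF subunits and none of 21 genes of the H3K27 methylation machinery was called. In lists of this size that is near the 2.50% of all genes called in each direction, so it is no trait of these genes by itself. SMARCA4 (BRG1) lay at 556 and 574 CPM in dKO-NPC and 614 and 670.0 CPM in dKO-D28 and SMARCA2 (BRM) at 33.8 and 23.3 CPM in dKO-NPC and 30.8 and 36.5 CPM in dKO-D28. In WT cells ACTL6B and SMARCA2 rose, by 2.87 and 1.89, and both changes differed from dKO (differences -3.45 and -1.65, adjusted p = 0.00277 and 0.000395).

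Receptors of the neurotrophin and GDNF families were among the falls, of which NTRK2 and GFRA1 serve BDNF and GDNF, held by the day 28 medium. Whether the medium had a part was not tested. NTRK2 (TrkB), the receptor of BDNF, stood at 24 and 15.6 CPM in dKO-NPC and 3.15 and 5.98 CPM in dKO-D28 (log2 fold change -2.06 ± 0.30 (SE), adjusted p = 0.000265), and NTRK3 (TrkC) at 28.5 and 34.7 CPM in dKO-NPC and 8.0 and 5.4 CPM in dKO-D28 (log2 fold change -2.26 ± 0.23 (SE), adjusted p = 1.01e-05). GFRA1, the co-receptor of GDNF, stood at 157 and 190.2 CPM in dKO-NPC and 83.6 and 31.3 CPM in dKO-D28 and its relative GFRA2 at 10.5 and 4.24 CPM in dKO-NPC and 2.91 and 2.12 CPM in dKO-D28. Of 8 tested genes of this list these 4 fell and none rose (median -1.52), and 6 were called without dKO-D28 replicate 1, and 2 and 3 without dKO-NPC replicates 1 and 2, with GFRA1 lost in both. NTRK3 rose in WT cells, by 1.75, and the changes differed by -4.00 (adjusted p = 2.85e-07).

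Axon guidance genes split, with 3 rises and 5 falls of 42 and a median of 0.01. The falls were led by the ephrin receptor EPHB1, from 30.8 and 26.9 to 7.27 and 5.6 CPM, the semaphorin receptor NRP2, from 152 and 205 to 50.4 and 33.4 CPM, and the ligand NTN1 (netrin 1), from 96.1 and 86.3 to 25.9 and 25.9 CPM, and all 3 were called with any 1 library left out. Undifferentiated passage 4 dKO NPCs held 18.3 and 20.1 CPM of EPHB1, 150 and 145 CPM of NRP2 and 14.8 and 12 CPM of NTN1. WT cells raised the same 3 genes over 28 days, and the differences were -4.67, -4.27 and -3.13 (adjusted p = 1.61e-08, 8.93e-06 and 2.40e-08). Without dKO-D28 replicate 1 there were 6 rises and 7 falls. The rises, EFNA1, SLIT3 and SEMA3D, were all lost without either dKO-NPC library. Opposite moves in WT cells were also seen in PTPRB, a receptor phosphatase, PCDH10, a protocadherin, and RIPOR2, an inhibitor of RhoA. PTPRB stood at 34.5 and 41 CPM in dKO-NPC and 10.9 and 6.56 CPM in dKO-D28, PCDH10 at 48.8 and 73.5 CPM in dKO-NPC and 24.2 and 10.04 CPM in dKO-D28 and RIPOR2 at 52.5 and 43.1 CPM in dKO-NPC and 13.6 and 3.28 CPM in dKO-D28.

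FGF was withdrawn for the 28 days in both genotypes, and its part in the changes was not tested. In the FGF and ERK list 3 of 24 genes fell in dKO cells (12.5%, median -0.21), where 2.50% of all genes tested were called lower and 2.50% higher. PHLDA1 fell from 208 and 224 to 68.4 and 68.3 CPM, MYC from 39 and 34.7 to 9.94 and 19.5 CPM and EPHA2 from 279 and 342 to 150.1 and 128 CPM. In WT cells 11 of the 24 fell and 1 rose (median -0.981), and by the contrast 8 changed more positively and 2 more negatively in dKO. Without dKO-D28 replicate 1 the list had 7 falls. MYC was not called without dKO-D28 replicate 1 or dKO-NPC replicate 1. The lists that follow had few genes tested, and a single call in so small a list is near the share over all genes. RDH10, a retinol dehydrogenase of retinoic acid synthesis, rose from 13.5 and 9.19 to 47.3 and 106 CPM, the 1 call among 12 retinoic acid genes, and in WT cells it fell from 43.1 and 36.5 to 5.04 and 5.23 CPM. Undifferentiated passage 4 dKO NPCs held 62.8 and 70.6 CPM of RDH10. GAS1, a membrane co-receptor of hedgehog ligands, rose from 35.3 and 38.9 to 137 and 361 CPM and was not called without either dKO-NPC library. HEY1, a Notch target, fell from 97.6 and 87.7 to 40.5 and 41.1 CPM, 1 of 17 Notch genes, and IGFBP3, a binding protein of insulin-like growth factors, from 112 and 124 to 35.1 and 56.7 CPM, 1 of 13. L1TD1, an RNA-binding protein of pluripotent cells and 1 of 4 genes tested on that list, rose from 3.0 and 6.36 to 33.9 and 20.5 CPM. Of vascular genes, the pericyte gene RGS5 fell from 124 and 136 to 22.3 and 9.07 CPM and KDR (VEGFR2) from 51 and 53 to 16.7 and 13.9 CPM, 2 of 4 tested, while endothelial CDH5 was at most at 0.242 CPM.

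Other lists held calls that were few in number, where 2.50% of all genes tested were called in each direction. In the ATF4 stress list DDIT4 rose besides ATF3, from 39.8 and 36.1 to 74.9 and 106 CPM, and was not called without dKO-D28 replicate 2. The list had 2 rises of 22. In the glycolysis and hypoxia list NDRG1 rose from 10.5 and 7.07 to 37.3 and 33.4 CPM and the glucose transporter SLC2A3 from 189 and 156 to 252 and 516 CPM, 2 of 34 (6 without dKO-D28 replicate 2), and SLC2A3 was lost without dKO-D28 replicate 2 or either dKO-NPC library. IFITM1, of the interferon and MHC class I list, rose and was lost without either dKO-NPC library. GPNMB was the 1 rise of 25 lysosome genes and ID2 the 1 rise of 27 BMP and TGF-beta genes, of which 4 rose and 5 fell without dKO-D28 replicate 1, and both were likewise lost without either dKO-NPC library. No cholesterol synthesis gene of 24 was called, and no HOX or microglia and blood gene reached the count minimum.

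Of 10 tested neural crest genes 2 rose, PAX7 and ERBB3, a neuregulin receptor, which stood at 3.75 and 2.12 CPM in dKO-NPC and 22.3 and 48.6 CPM in dKO-D28, and 2 fell, SNAI2 from 26.3 and 13.4 to 6.54 and 4.63 CPM and ETS1 from 29.3 and 33.9 to 4.61 and 9.07 CPM. The list's median was 2.71, and its rises numbered 7 without dKO-D28 replicate 1 and 4 without dKO-D28 replicate 2. The crest factors TFAP2A, TFAP2B and PAX3 were not called and were higher in replicate 2 than in replicate 1, TFAP2B at 0 and 0 CPM in dKO-NPC and 6.54 and 48.2 CPM in dKO-D28. Of the defining crest genes, SOX10 was at most at 0.751 CPM and FOXD3 at 0 in the 4 libraries. Of 6 muscle-list genes TNNT1 rose, and TAGLN, MYL9 and CNN1 were among 4 falls, MYL9 standing at 200.4 and 253 CPM in dKO-NPC and 13.8 and 50.4 CPM in dKO-D28. TNNT1 and MYL9 lost the call without either dKO-NPC library, and CNN1 without dKO-NPC replicate 2.

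Mitochondrially encoded RNAs gave the 6 largest rises in mean CPM. MT-CO1, a subunit of cytochrome oxidase, stood at 2836 and 3476 CPM in dKO-NPC and 7666 and 11756 CPM in dKO-D28 (log2 fold change 1.62 ± 0.21 (SE), adjusted p = 0.000819) and the ribosomal RNA MT-RNR2 at 1616 and 1705 CPM in dKO-NPC and 4594 and 5041 CPM in dKO-D28 (log2 fold change 1.54 ± 0.14 (SE), adjusted p = 4.63e-06). MT-ND4, MT-ND5, MT-CO2 and MT-CO3 completed the 6 largest, with log2 fold changes of 1.39, 1.5, 1.23 and 1.37, and 11 of 13 protein-coding mitochondrial genes rose (median 1.37). With 1 library left out the count was 7 without dKO-D28 replicate 2, 8 without either dKO-NPC library and 11 without dKO-D28 replicate 1. In WT cells the median was 1.36, none of the 13 was called by the interaction contrast, and passage 4 dKO NPCs, which had not been differentiated, held 7876 and 7149 CPM of MT-CO1. The low values are those of the early NPC libraries that stood apart, and their part in this result was not tested.

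The same libraries carried more reads on near-identical gene copies. Of 407 pseudogenes tested 25 were called higher (6.14%) and 51 lower (12.5%), against 2.38% and 2.28% of 11825 protein-coding genes. Of the 12 largest falls 4 were pseudogenes, GTF2IP1 at 104 and 89.8 CPM in dKO-NPC and 1.94 and 5.98 CPM in dKO-D28, EEF1A1P19 at 47.3 and 169 CPM in dKO-NPC and 7.03 and 3.28 CPM in dKO-D28, RPSAP18 at 57.1 and 43.8 CPM in dKO-NPC and 1.7 and 4.44 CPM in dKO-D28 and RPL17P7 at 57.8 and 29 CPM in dKO-NPC and 2.91 and 3.28 CPM in dKO-D28, and 1 was EIF3CL, a copy of EIF3C, at 70.6 and 36.8 CPM in dKO-NPC and 0.97 and 2.12 CPM in dKO-D28. Reads of such genes can be assigned to more than one copy, so their values are uncertain. Passage 4 dKO NPCs were low too, at 4.45 and 4.17 CPM for GTF2IP1, and its log2 fold change was -4.86 in WT and -4.54 in dKO cells. Left without 1 library, EIF3CL was called in no case and EEF1A1P19 not without dKO-D28 replicate 2 or dKO-NPC replicate 2. With protein-coding genes alone tested, an alternative chosen after seeing the data, 281 genes were called higher and 269 lower. TMSB4X, an actin-sequestering peptide and the last of the 6 largest falls in level, stood at 1146 and 1653 CPM in dKO-NPC and 720.4 and 607 CPM in dKO-D28, and its call was lost without dKO-D28 replicate 2 or dKO-NPC replicate 2. Undifferentiated passage 4 dKO NPCs held 748 and 645 CPM of TMSB4X, near the day 28 level.

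**Figure D3:**
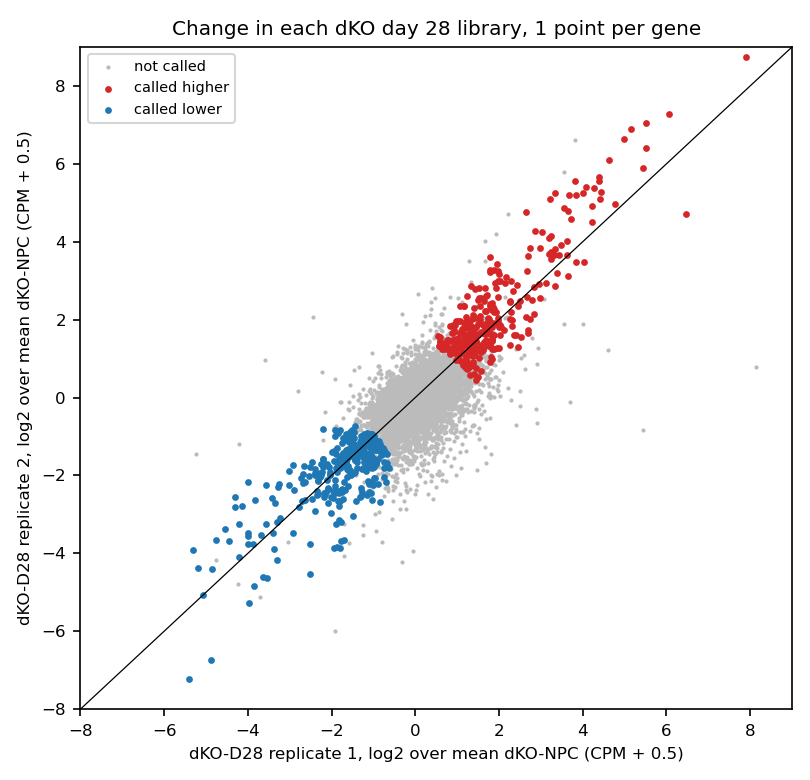
Log2 change of each tested gene in dKO-D28 replicate 2 (vertical axis) against that in replicate 1 (horizontal axis), each over the mean of the dKO-NPC libraries on CPM + 0.5, coloured by call. Called genes lie mostly near the diagonal, and most genes far from it were not called.

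For all called genes both dKO-D28 libraries lay on the same side of both progenitor libraries. They also lay above them for 24.0% and below them for 23.1% of all genes tested, most of which were not called. On some other genes the dKO-D28 libraries parted, and the differences between them are a description with no test. Of the 336 genes called higher, 220 had the larger value in replicate 2. The 10 genes that were highest in replicate 1 relative to replicate 2 included the immediate-early genes ARC (22.1 and 1.74 CPM) and EGR3 (60.4 and 6.56 CPM), the calcium channel genes CACNG8 (22.8 and 2.51 CPM) and CACNA1E (25.7 and 4.25 CPM), and the mesenchymal factor PRRX1 (32.2 and 1.74 CPM). The others were PLEKHD1, A2M, CPNE4, PLA2G3 and FGFBP3. The 10 at the other extreme, highest in replicate 2, included the neural crest and dorsal factors TFAP2B (6.54 and 48.2 CPM), PAX3 (5.09 and 31.3 CPM) and TFAP2A (5.82 and 32.2 CPM), the forebrain factor OTX1 (14.1 and 69.3 CPM) and the nuclear receptor NR2F2 (17.7 and 109 CPM). The others were EPAS1, HAPLN1, CPT1A, GPRC5A and TMEM132C. OTX1, PAX3 and CPT1A were also high in passage 4 dKO NPCs, at 60.4 and 64, 32.1 and 33.1 and 76.1 and 79.2 CPM.

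At the level of lists, replicate 1 held more neuronal RNA. The median over the dKO-NPC mean was -0.0020 in replicate 1 and -0.92 in replicate 2 for neuronal cytoskeleton and identity, 0.19 and -0.41 for synapse genes and 0.0060 and -1.11 for cholesterol synthesis. Epithelium was 3.47 and 4.24. For cholesterol synthesis 13 of 24 genes were called lower without replicate 1 and none without replicate 2. Neither replicate held neuronal RNA above the progenitors by the list median of neuronal cytoskeleton genes.

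Set against the same 28 days in WT cells, the dKO change involved fewer genes. In WT cells 1652 genes (12.3%) were called higher and 1516 (11.3%) lower, and the median absolute log2 fold change over all genes was 0.52 against 0.24 in dKO. Spearman correlation across genes between progenitor and day 28 libraries was 0.929 to 0.940 in dKO and 0.823 to 0.830 in WT, while the dKO-D28 libraries correlated with each other at 0.959. Genes are not independent replicates, and these are descriptions. Of the 336 dKO rises, 93 were also called higher in WT cells (27.7% of the dKO and 5.63% of the WT rises) and 59 were called lower there. Of the 337 falls, 164 were shared (48.7% of the dKO and 10.8% of the WT falls) and 53 rose in WT cells. The genes that rose in WT cells had a median change of 0.09 in dKO and 1.63 in WT, and those that fell -0.065 and -1.65.

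By the interaction contrast, 1442 genes (10.7%) changed more positively in dKO than in WT cells and 1276 (9.48%) more negatively. Among the dKO rises 143 differed from WT in the positive direction (42.6%) and 2 in the negative, and among the dKO falls 127 in the negative (37.7%) and 29 in the positive. The remainder were not shown to differ. These genes were picked on the dKO change, which is itself part of the contrast, so the signs of their differences are largely set by that choice. The 8 genes that rose in dKO with the largest fitted differences from WT were KRT19, GAS1, CLDN4 and KRT7 together with L1TD1, COL17A1, PAX7 and ITGB4. The last 4 were at 0 in both WT-D28 libraries or, for ITGB4, in both dKO-NPC libraries, so their fitted differences depend on the prior count and give no order. Those that fell and differed most were NKX2-1, PTPRB, COL8A1, TNC, EPHB1, RIPOR2, PCDH10 and NRP2.

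**Figure D4:**
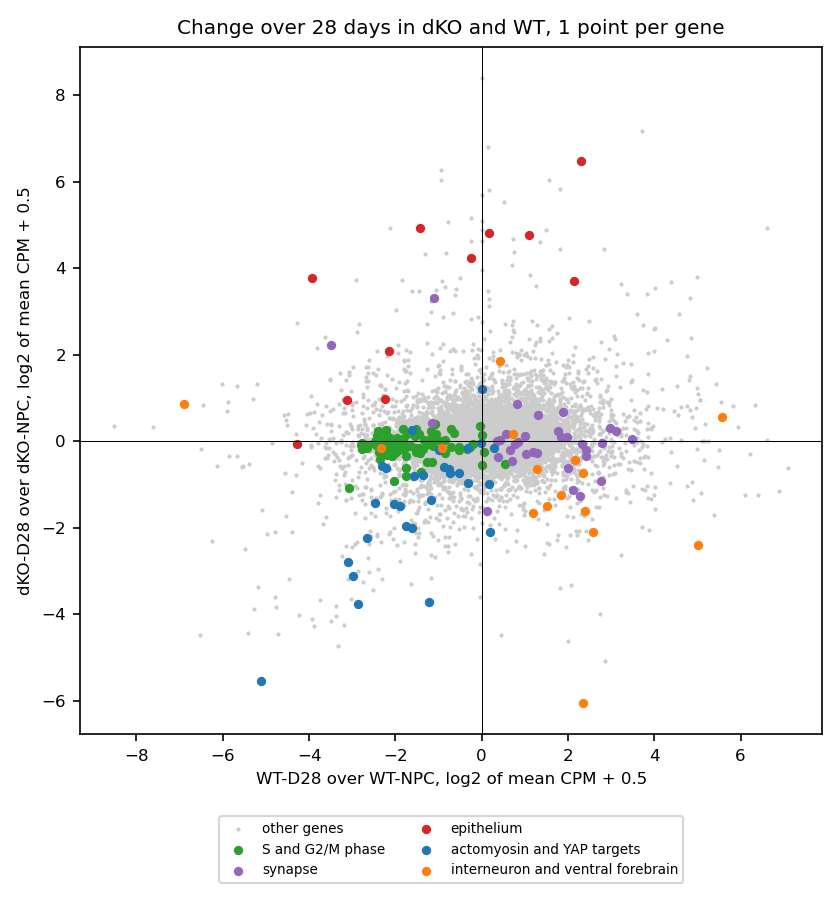
Change over 28 days in dKO (vertical axis) against WT (horizontal axis) cells, each as the difference of log2(mean CPM + 0.5), 1 point per tested gene, with genes of 5 lists coloured. Cell cycle genes lie mostly left of 0 on the WT axis and near 0 on the dKO axis, actomyosin genes mostly below 0 on both, and epithelium genes above 0 on the dKO axis with 1 exception.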

How the data were processed

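RNA from H1 cells had been extracted with TRIzol and made into TruSeq libraries, with a kit that does not mark strand. Per the labels' processing notes the authors used HISAT2 2.0.4, SAMtools 1.3.1 and HTSeq 0.6.0 on the hg38 genome, and they deposited raw counts per Ensembl gene, 1 file per sample, before any normalization. The annotation release and strand setting are not given in the sources used here. DESeq 1.18.1, also in the notes, left no values in these files.

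Genes whose counts averaged 20 or more across the 12 samples entered 1 robust quasi-likelihood fit of 6 group means (edgeR 4.0.16 with limma 3.58.1 in R 4.3.3), with TMM scaling and 6 residual degrees of freedom. Genes were called at a Benjamini-Hochberg adjusted p below 0.05 and a fold change above 2, which is stricter than the unadjusted p of the study's methods. SE is the size of the log2 fold change over the square root of F. CPM used TMM-scaled library sizes. Totals ranged from 756942 to 10601172 counts. A gene at 0 in a group was given a bound from 3 counts over its 2 libraries, and with 1 to 3 counts an exact binomial 95% interval of the ratio, both covering counting error only. The difference from the WT change was a contrast of the same fit. On data simulated for the dKO comparison with 13454 genes, the fit called 91% of genes changed 3-fold, 100% of those changed 6-fold and 0.0302% of the rest.

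Genes were named as the 12 largest called changes in each direction with at least 20 CPM in both samples of the higher group, the 6 largest in mean CPM, up to 3 called members of each list in each direction, KDM6A, KDM6B and the study's markers, the 8 largest differences from WT in each direction, and the 10 genes that differed most between the dKO-D28 libraries in each direction. Other genes named were chosen after their values were seen. Some genes that this rule names are not reported here. The 42 gene lists, with S and G2/M genes from Seurat 5.3.0, and the comparison itself were chosen with earlier results of these data known, and no list was tested as a set. Alternatives were DESeq2 1.42.0, other scaling, filters and thresholds, fits to the compared samples alone, each replicate left out, the replicate number as a block, a correction for GC content and length, and protein-coding genes alone.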

Additional observations from a re-analysis of the deposited data

Results flagged for a closer look

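The results here stand out because the change over 28 days differed between dKO and WT cells by the interaction contrast of the edgeR fit, at an adjusted p below 0.05 and a difference above 2-fold. In all, 1442 genes differed upwards and 1276 downwards in dKO. All values below are differences of log2 fold changes, dKO minus WT. For genes at 0 in a group the value is a bound from 3 counts over that group, and no value is given where both groups of a genotype held 3 counts or fewer.

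Among epithelial and pluripotency genes, dKO cells changed more positively in L1TD1 (at least 7.71), KRT19 (8.91), ITGB4 (at least 2.87, with 2 counts in WT-NPC whose counting error is not included), CLDN4 (6.76) and KRT7 (5.78). Among genes of cortex, neural crest, pigmented cells, guidance, signalling pathways and other lists the same held for PAX7 (at least 6.64, with 4 counts in WT-NPC whose counting error is not included), GAS1 (7.33), TBR1 (6.64), EMX1 (6.25), RDH10 (5.69), NEUROG1 (5.62), EOMES (5.25), PAX6 (5.08), PMEL (4.76), SEMA3D (4.67), SNAI2 (2.71) and ID2 (1.8). Among signal-responsive genes it held for CRH (5.41), IFITM1 (4.31), FOSB (3.98), ATF3 (2.82), SLC2A3 (2.02), IGFBP3 (1.55), NDRG1 (1.22) and MYC (1.16). Of these, CRH, EMX1, EOMES and NEUROG1 had 2 or 3 counts in at least 1 group, which leaves the size of their differences uncertain. CNTN2, an axonal adhesion molecule, differed by 3.52, KDR (VEGFR2) by 3.58 and CENPE, a mitotic motor, by 2.01. SNAI2, IGFBP3, MYC, KDR and CENPE fell in both genotypes, less so in dKO.

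In ventral forebrain genes dKO cells changed more negatively, by -9.03 in NKX2-1, -8.58 in LHX8, -5.11 in ISL1, -4.20 in DLX1 and -2.02 in DLX2. In neuronal and chromatin genes the differences were -4.59 for CAMK2A, -3.45 for ACTL6B, -2.67 for TUBB2A, -2.08 for CPLX1, -1.65 for SMARCA2, -1.56 for THY1 and -1.40 for MAP2, and GFAP of astrocytes differed by -2.37. In guidance, adhesion and receptor genes they were -5.91 for PTPRB, -4.67 for EPHB1, -4.53 for RIPOR2, -4.40 for PCDH10, -4.27 for NRP2, -4.00 for NTRK3, -3.13 for NTN1 and -1.85 for NTRK2. In matrix, cytoskeletal and remaining genes they were -5.39 for COL8A1, -5.13 for TNC, -3.40 for FRZB, -2.43 for CAVIN1, -2.08 for CD44, -2.08 for DKK3, -1.87 for CDK6, -1.13 for TMSB4X and -1.01 for PHLDA1.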

How the results depend on the processing

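In dKO cells the rises numbered 162 in the fit to the 4 compared samples, 666 with all genes of at least 1 count, 539 at an unadjusted p below 0.05 and 579 with no minimum fold change, and the falls 784 with all genes of at least 1 count and 706 with no minimum fold change. With no minimum fold change WT cells had 3128 rises and 3084 falls, and 1935 genes differed downwards from the WT change. With 1 replicate left out, dKO rises ranged from 174 to 535 and dKO falls from 262 to 627. In these fits the lone sample of a group is assumed to vary like the other groups. The log2 fold change of FABP7 was 0.30 with all samples, -1.03 without dKO-D28 replicate 1 and 0.996 without dKO-D28 replicate 2, and the cause was not tested. The other alternatives kept these counts within 1.5 times, among them DESeq2 (284 rises, 330 falls) and the GC content and length correction (333 and 342). Protein-coding genes alone, chosen after seeing the data, gave 281 and 269. With the replicate number as a block, dKO rises were 341 and falls 342, but samples with the same number did not deviate together (correlation 0.0454 in dKO and -0.0163 in WT), so they share only a number. Depth limits low genes most in the NPC libraries, where 3 counts were 2.12 to 3.92 CPM.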
